A study of Rattus norvegicus with 8 samples.

Results

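The genes described here encode the collagens, laminins and nidogens, the other structural proteins of the extracellular matrix, and the proteases and inhibitors that act on it. They were taken by the name that the array gives each probe: every Col, Lam, Mmp, Timp and Adamts gene, with Fn1, Sparc, Nid1, Nid2, Hspg2, Dcn, Lum, Bgn, Eln and Lox. Hspg2, the gene of perlecan, named none of the probes and is not analysed here. This gave 138 of 41012 probes and 97 of 29318 named genes. By role, 17 were basement membrane genes, 18 were genes of the interstitial matrix, 14 were other collagens, 23 were Mmp genes, 16 were Adamts genes and 4 were Adamts-like genes. Timp genes accounted for 3 more and Sparc for 1. The last gene, Col4a3bp, fits the name but encodes a ceramide transfer protein, and neither of its 2 probes was bright enough to be tested.

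The samples were whole testes explanted from fetal Sprague-Dawley rats and cultured for 72 h. The medium held 1 µM MEHP, 10 µM MEHP or the vehicle DMSO alone, MEHP being mono(2-ethylhexyl) phthalate, the active metabolite of the plasticizer DEHP. Each MEHP-exposed testis was 1 sample, with 3 testes from different litters at 10 µM and 1 testis at 1 µM, and each was compared with the same pool of RNA from 3 vehicle-cultured testes. Each comparison was hybridized on 2 arrays of 60-base probes, a first hybridization and a repeat with the dyes exchanged, which gave 8 arrays on 2 slides. Slide 1 held testes 1 and 2 at 10 µM, and slide 2 held testis 3 and the 1 µM testis. The values are log2 ratios of MEHP over the pool, averaged over both hybridizations of a testis, so that 1 on this scale is a 2-fold difference. Because the vehicle is a single pool, the tests do not include the spread between control testes. In whole explants, fewer cells of a type and less RNA per cell cannot be told apart.

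The direction of the ratios is likely and not settled. The labels place MEHP on the green dye in all 8 hybridizations, whereas the methods describe an exchange of dyes. MEHP was taken as green in the first hybridization and red in the repeat. Over the 3680 probes well above background on all arrays, the ratios of red over green were opposite within each pair of arrays, with correlations across probes from −0.820 to −0.499. In testis 2 the weak channel was green on the first array, with 0.249% of its spots well above background, and red on the repeat, with 1.54%. The opposite assignment would turn the sign of every ratio given here.

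Testis 2 at 10 µM stood apart over the whole array, these genes included. Its MEHP channel was well above background for 0 of the 138 matrix probes on its first array and 5 on the other, against 26 to 50 on the other arrays. Among the 43 matrix probes that could be tested, the MEHP signal of testis 2 was a substitute set by the scanner software for 28 probes on the first array and 24 on the repeat. Over all tested probes it was a substitute for 74.3% and 68.8% on these arrays, so the loss was not particular to matrix genes. The MEHP signal was a substitute for 5 of the 43 on the first array of testis 3 (Col9a2, Eln, Lama2, Lamb3 and Lox) and for 1, Lamb3, on the first array of testis 1. Over all tested probes the shares on these arrays were 27.9% and 10.5%. For 5 probes of the repeat array of testis 2 both channels held such substitutes and the ratio was exactly 0. Results at 10 µM are therefore given for the 3 testes and without testis 2.

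**Figure D1:**
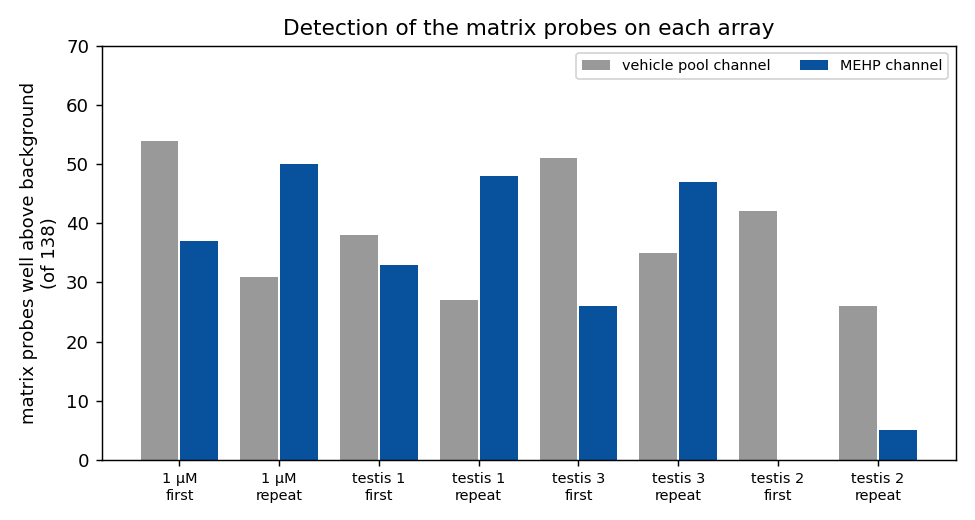
Number of the 138 matrix probes well above background (y axis) in the vehicle pool channel (grey bars) and the MEHP channel (blue bars) of each of the 8 arrays (x axis); testes 1 to 3 are the 10 µM testes. The MEHP bars of testis 2 stand at 0 and 5 probes, and those of the other 6 arrays at 26 to 50.

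The fetal testis separates its seminiferous cords from the interstitium by a basement membrane, a sheet of type IV collagen and laminin networks bridged by nidogens and the proteoglycan perlecan. Sertoli cells and the peritubular cells around the cords both contribute to this sheet. The interstitial matrix between the cords, where the Leydig cells lie, is built of fibrils of types I, III and V collagen, with fibronectin and small proteoglycans such as decorin and biglycan, and is made mostly by mesenchymal cells. Matrix metalloproteinases (Mmp) and Adamts proteases cut these proteins, and Timp proteins inhibit the metalloproteinases.

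Upstream sequences were available for 68 of the 97 genes and 19 of the 31 tested genes (RefSeq, assembly GRCr8). The sequences below were chosen because Col4a1 and Col4a2, which encode the chains of the commonest type IV collagen, share 1 short region between opposite starts, and because Col1a2 and Col16a1 are interstitial collagens whose ratios are described next. Capitals mark matches to 3 patterns searched on both strands: the TATA-box letters TATAA, the CCAAT letters of the CCAAT box, and the GC-box letters GGGCGG. The matches do not overlap in these windows. The first sequence is the whole 76 bases between the starts of Col4a1 (forward strand) and Col4a2 (reverse strand) at chr16:84885521-84885596, and the others are the 250 bases before the start of each gene, at chr4:33518307-33518556 and chr5:147672846-147673095, all on the forward strand.
Col4a1-Col4a2: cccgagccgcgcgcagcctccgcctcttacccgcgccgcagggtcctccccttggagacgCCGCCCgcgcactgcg
Col1a2: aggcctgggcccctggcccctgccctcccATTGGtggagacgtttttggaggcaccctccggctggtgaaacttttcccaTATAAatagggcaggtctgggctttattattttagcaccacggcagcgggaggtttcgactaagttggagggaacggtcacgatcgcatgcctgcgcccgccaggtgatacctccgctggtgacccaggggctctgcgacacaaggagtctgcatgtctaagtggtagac
Col16a1: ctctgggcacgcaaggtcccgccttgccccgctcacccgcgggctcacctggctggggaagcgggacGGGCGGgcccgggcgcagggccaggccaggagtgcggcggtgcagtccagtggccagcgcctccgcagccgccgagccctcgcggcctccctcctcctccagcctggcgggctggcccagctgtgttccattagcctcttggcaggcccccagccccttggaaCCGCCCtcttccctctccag

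The shared region of Col4a1 and Col4a2 held GGGCGG, read as CCGCCC, 16 bases before the start of Col4a1. Col1a2 held CCAAT, read as ATTGG, 221 bases before its RefSeq start and TATAA 170 bases before it. All starts here are those of the annotation, and whether transcription begins there was not examined. Col16a1 held GGGCGG at 183 bases and, read as CCGCCC, at 20 bases before its start. In windows of 250 bases, GGGCGG was present in 71.4% of 14 basement membrane genes and 37.5% of 8 interstitial genes. It was present in 54.4% of all 68 genes with a sequence and 30.5% of all 33469 promoters. CCAAT was present in 35.7%, 37.5%, 33.8% and 34%, and TATAA in 14.3%, 12.5%, 27.9% and 24%, in the same order. The shared region of Col4a1 and Col4a2 lies in the windows of both genes, so its match counts for each. These are matches of letters only.

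Of the 138 matrix probes, 43 probes of 31 genes were bright enough to be tested at 10 µM, and 57 probes of 42 genes to be assessed at 1 µM. With all 3 testes at 10 µM, 0 of the 43 probes passed the adjusted threshold of 0.05 (limma, two-sided), where 1.42% of the 10016 probes tested across the array did, 0.26% higher and 1.16% lower. At an unadjusted p of 0.05 there were 3 matrix probes, of Col4a1 above the pool and of Lamb1 and Dcn below it, or 6.98% against 17.5% of all tested probes, of which 1.73% were above and 15.8% below. In testis 2, 39 of the 43 ratios were below 0, and so were 91.4% of all tested probes. The ratio was below 0 in each of the 3 testes for 5 matrix probes (array-wide 36.4%) and above 0 in each for 3 (array-wide 3.83%). Testes 1 and 3 showed another picture: 27 of the 43 matrix probes were above the pool in both and 5 below it in both, against 35.9% above and 38.1% below over all tested probes. With the limit at 1.5-fold in both testes, 14 matrix probes were higher and 2 lower, where the array-wide shares were 13.6% and 15.2%.

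Without testis 2, 6 of the 43 matrix probes passed the adjusted threshold, or 14%, a share no higher than the 16.7% over all tested probes. Of these 6, 5 were higher than the pool (array-wide 7.12%) and 1 was lower (9.53%). The 5 that rose were probes of Col16a1, Col3a1, Col1a1, Mmp2 and Lamb2, and the 1 that fell was Dcn. All 6 also passed when each array was centred on its median as well, a setting in which 13 matrix probes passed, or 30.2%, against 27.6% of all tested probes, whose median was then 0.047 instead of −0.040. The other 7 were above the pool and were probes of Bgn, Fn1 and Col5a1, both Col4a1 probes, the brightest Mmp2 probe and a second probe of Col16a1. Leaving out testis 1 or testis 3 instead gave 0 calls of matrix probes, and the array-wide share of calls there was not computed.

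Col1a1 and Col1a2 encode the chains of type I collagen, the main fibre of the interstitium, and Col3a1 that of type III. Col1a1 was at 1.02, −0.42 and 1.27 in testes 1, 2 and 3, averaging 0.62 ± 0.92 (SD, n = 3; adjusted p = 0.587 by limma) over 3 testes and 1.15 without testis 2 (adjusted p = 0.0402). Col3a1 was at 1.51, −1.43 and 1.14, averaging 0.41 ± 1.60 (SD, n = 3; adjusted p = 0.766 by limma) and 1.32 without testis 2 (adjusted p = 0.0263). Both genes thus stood above the pool in testes 1 and 3 and below it in testis 2. The value of testis 1 rests on 1 hybridization for each of these probes, since the other spot was marked as an outlier. Col1a2 was at 0.67, −1.42 and 0.78, and its mean without testis 2, 0.72, did not pass (adjusted p = 0.15, limma). A second Col1a2 probe disagreed in testis 3, at −0.64, while the other Col1a1 probes were above the pool in testes 1 and 3, at 0.63 and 0.87 for one and 0.77 and 0.33 for the next.

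For several bright interstitial genes the low value of testis 2 was that of its first hybridization, where no matrix probe had a MEHP signal well above background. Col1a1 was at −2.29 in that hybridization and at 1.45 in the repeat, Col1a2 at −3.77 and 0.93, and Col3a1 at −3.60 and 0.73. Bgn, which encodes biglycan, was at −4.04 and 0.53. These 4 genes and a second probe of Col4a1, at 3.21 in the repeat, were the 5 matrix probes whose MEHP signal was well above background on the repeat array, and all 5 ratios there were above 0. Of the 611 tested probes read above background in that channel, 67.9% had ratios above 0, and a choice of probes by their MEHP signal favours high ratios.

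**Figure D2:**
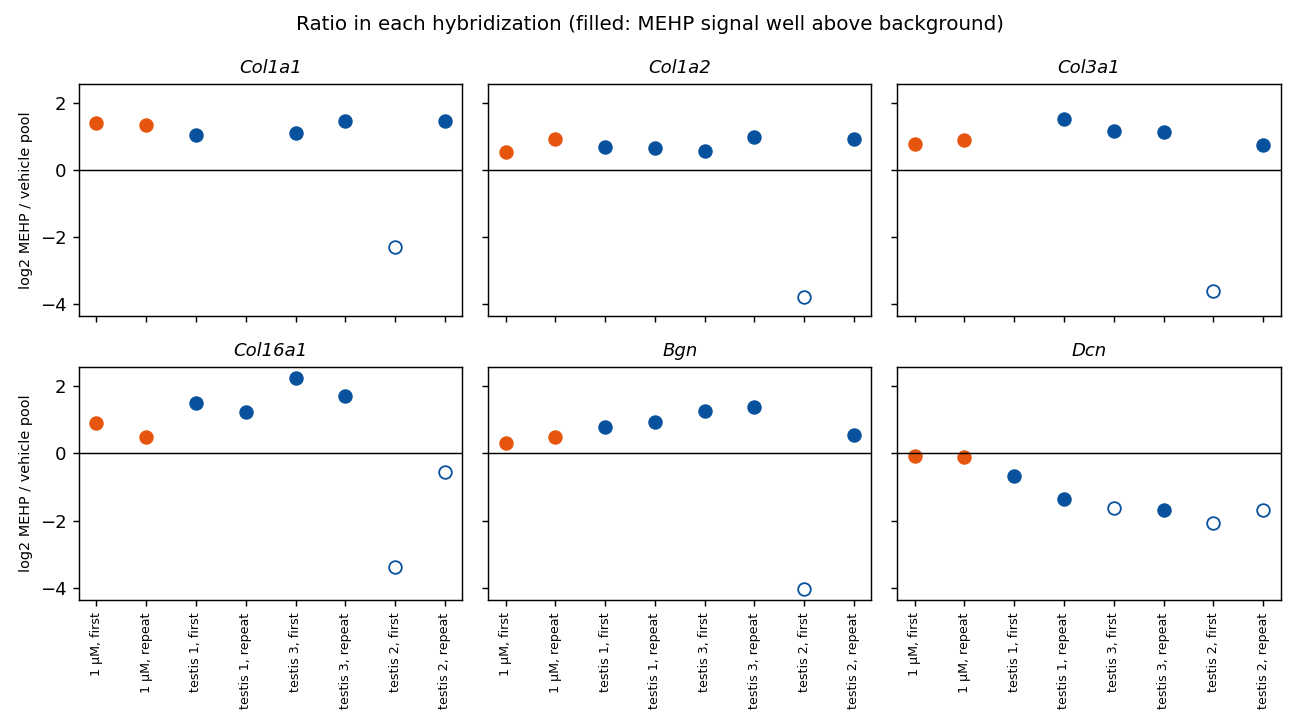
Log2 ratio of MEHP over the vehicle pool (y axis) in each hybridization (x axis) for the brightest probe of 6 interstitial genes, orange for the 1 µM testis and blue for the 10 µM testes 1 to 3; filled points have a MEHP signal well above background and open points do not, and outlier spots are left out. In testis 2 the first hybridization is open and between −4.04 and −2.08 for all 6 genes, while the repeat is filled and above 0 for Col1a1, Col1a2, Col3a1 and Bgn; Dcn is below 0 on every 10 µM array.

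Type V and type XVI collagens associate with these fibres, and type VI collagen forms beaded filaments beside them. Col16a1 was at 1.36, −1.97 and 1.98 in testes 1, 2 and 3, and its mean without testis 2, 1.67, was the highest of the tested matrix probes (adjusted p = 0.0154, limma). A second Col16a1 probe was at 1.48, −0.68 and 0.44 and passed only without testis 2 and with centred arrays, at 1.05 (adjusted p = 0.0186, limma). Col5a1 was at 0.80, −1.26 and 0.91, Col5a2 at 0.36, −2.05 and 0.65, and Col6a1 at 0.64, −2.05 and 0.94. None of these 3 passed with 3 testes or without testis 2, where their adjusted p-values were 0.097, 0.314 and 0.125, and Col5a1 passed when the arrays were centred as well, with 0.0357. Each was above the pool in testes 1 and 3, although a second Col5a1 probe was at −0.20 in testis 3.

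The remaining interstitial genes did not move together. Bgn was at 0.86, −1.75 and 1.32 in testes 1, 2 and 3, and its mean without testis 2 was 1.09 (adjusted p = 0.0503, limma). Fn1, which encodes the adhesive glycoprotein fibronectin, was at 0.75, −2.83 and 1.12, with 0.93 without testis 2 (adjusted p = 0.0792, limma), and its second probe was at 0.81, −1.53 and 0.082. Dcn went the other way. Decorin, its product, binds collagen fibrils and limits their thickness, and Dcn was at −1.03, −1.89 and −1.66, below the pool in all 3 testes and in 6 of 6 hybridizations. The pool was well above background on all 6 arrays and MEHP on 3 of them. Its mean was −1.53 ± 0.45 (SD, n = 3; adjusted p = 0.118 by limma), and −1.34 without testis 2 (adjusted p = 0.0272). With a trend in the variance the 3-testis value passed, with an adjusted p of 0.0445, and over the alternatives tried its adjusted p ranged from 0.00399 to 0.849.

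Eln, the gene of elastin, and Lox, the gene of lysyl oxidase, which crosslinks collagen and elastin, had a MEHP signal well above background on only 2 and 1 of the 6 arrays at 10 µM. Eln was at 0.19, −0.69 and −1.71 in testes 1, 2 and 3, and Lox was at 0.60, −1.32 and −1.33. The hybridizations of Eln in testis 1 were 2.01 and −1.62, so that its value there is the mean of opposite readings. Those of Lox in testis 1 were also opposite, at −0.34 and 1.53, and its −2.20 in the first hybridization of testis 3 rests on a substituted MEHP signal. Over the interstitial list, 11 of the 12 tested genes were above the pool in testis 1, 0 in testis 2 and 9 in testis 3. Of all 10016 tested probes, 5486, 807 and 4310 were above it in the same testes.

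**Figure D3:**
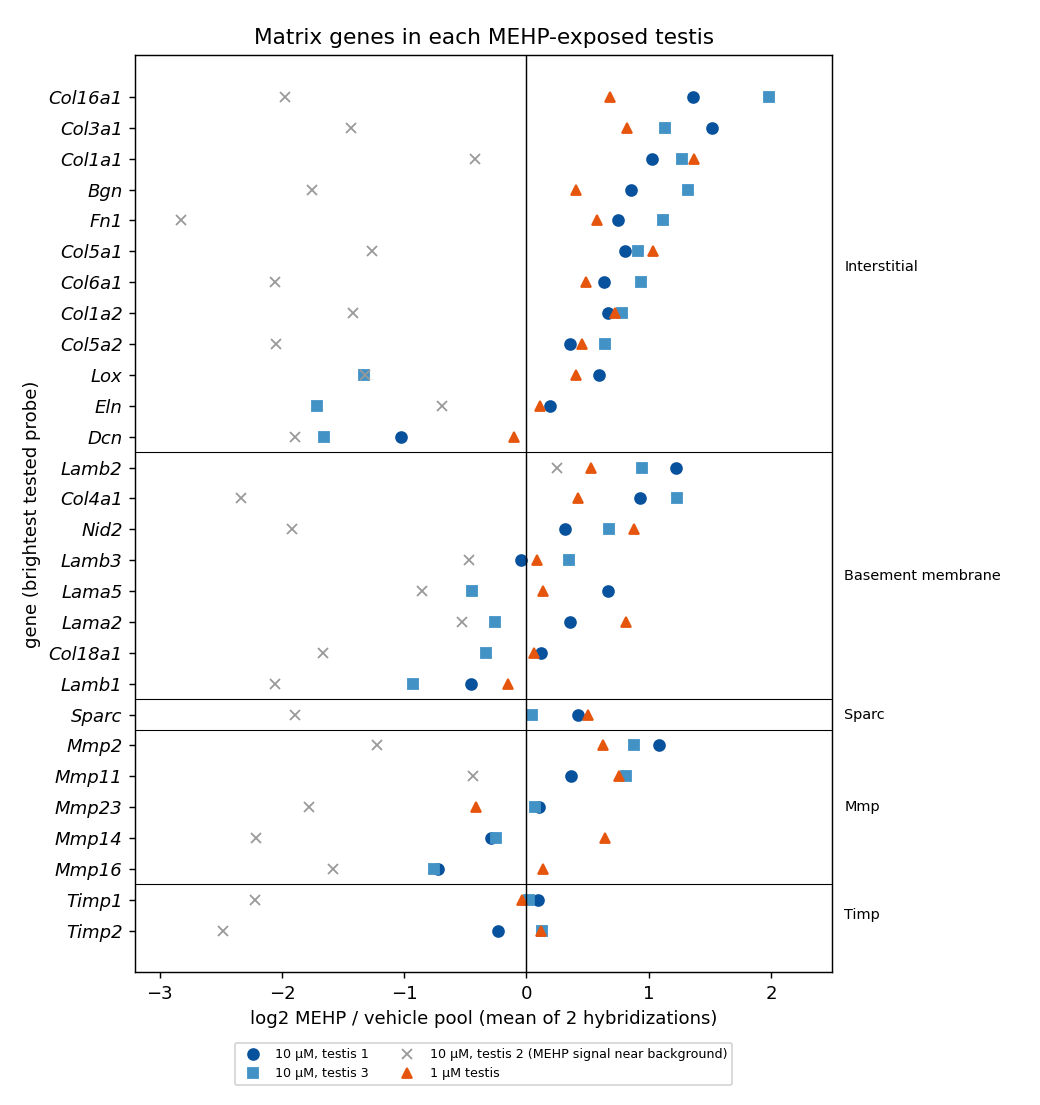
Log2 ratio of MEHP over the vehicle pool (x axis) for each tested interstitial, basement membrane, Sparc, Mmp and Timp gene (y axis, brightest tested probe, ordered within each class by the mean of testes 1 and 3); dark blue circles, light blue squares and grey crosses are testes 1, 3 and 2 at 10 µM, and orange triangles the 1 µM testis. Most fibrillar collagens lie above 0 in testes 1 and 3 and at 1 µM, Dcn lies below 0 in all 4 testes, and the grey crosses of testis 2 lie left of 0 for every gene but Lamb2.

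Basement membrane genes varied from gene to gene. Lamb2, which encodes the laminin β2 chain, was at 1.22, 0.25 and 0.95 in testes 1, 2 and 3, averaging 0.81 ± 0.50 (SD, n = 3; adjusted p = 0.456 by limma) and 1.08 without testis 2 (adjusted p = 0.0488). Its hybridizations in testis 2 were opposite, at 2.01 and −1.52. Lamb1, which encodes the β1 chain of many embryonic laminins, was at −0.46, −2.06 and −0.93, below the pool in each testis and in 6 of 6 hybridizations. The mean of Lamb1 was −1.15 ± 0.82 (SD, n = 3; adjusted p = 0.263 by limma), and −0.69 without testis 2 (adjusted p = 0.177). Lamb1 and Lamb2 thus lay on opposite sides of the pool in testes 1 and 3, and only the rise of Lamb2 passed a test, without testis 2. The difference between the 2 genes was not tested.

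Col4a1 was at 0.93, −2.34 and 1.23 in testes 1, 2 and 3, and its mean without testis 2 was 1.08 (adjusted p = 0.0502, limma). Its second probe was at 0.63, 1.84 and 1.27, above the pool in all 3 testes, averaging 1.25 ± 0.61 (SD, n = 3; adjusted p = 0.211 by limma). The 2 probes therefore disagreed in testis 2 alone. There the second probe was at 0.47 and 3.21, the first of these without a MEHP signal well above background. On that repeat array its MEHP signal was 4370, against 440 for the brighter probe. Its value in testis 2 thus rests on 1 spot, and its mean without testis 2 was 0.95 (adjusted p = 0.0823, limma). Col4a2, the neighbour of Col4a1, was not bright enough at 10 µM. At 1 µM its MEHP signal was not well above background on either array, so no value is given. Nid2, which encodes nidogen-2, was at 0.32, −1.91 and 0.68. Col18a1, the source of the fragment endostatin, was at 0.12, −1.66 and −0.33, and its second probe at −0.040, −0.98 and −0.026.

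The other laminin genes gave no single direction. Lama5 was at 0.67, −0.85 and −0.44 in testes 1, 2 and 3, and its second probe at 1.28, 0.42 and −0.36. Lama2 was at 0.36, −0.53 and −0.26, and its first hybridization in testis 3, at −1.60, rests on a substituted MEHP signal. Lamb3, which encodes the β3 chain of the laminins under stratified epithelia, was at −0.041, −0.47 and 0.35, and its hybridizations were opposite in sign within testis 1, at −1.45 and 1.37, and within testis 3, at −1.37 and 2.06. The MEHP signal was a substitute in both negative readings. None of these 3 genes passed with or without testis 2. Over the basement membrane list, 6 of 8 tested genes were above the pool in testis 1, 1 in testis 2 and 4 in testis 3, to be read against the array-wide counts above.

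Set side by side, the median of the basement membrane list was 0.34, −1.26 and 0.043 in testes 1, 2 and 3, over 8 genes. That of the interstitial list was 0.71, −1.59 and 0.92, over 12 genes. The medians over all tested probes were 0.089, −1.13 and −0.20, and over the 43 matrix probes 0.60, −1.43 and 0.39. The basement membrane median was therefore below the interstitial one by 0.37 in testis 1 and 0.88 in testis 3, and above it by 0.34 in testis 2. The differences of basement membrane minus interstitial were −0.37, 0.34 and −0.88, with a mean of −0.30 ± 0.61 (SD, n = 3), which is smaller than the spread between testes. Computed from the genes' means over testes, it was −0.10 with all 3 testes and −0.69 without testis 2.

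**Figure D4:**
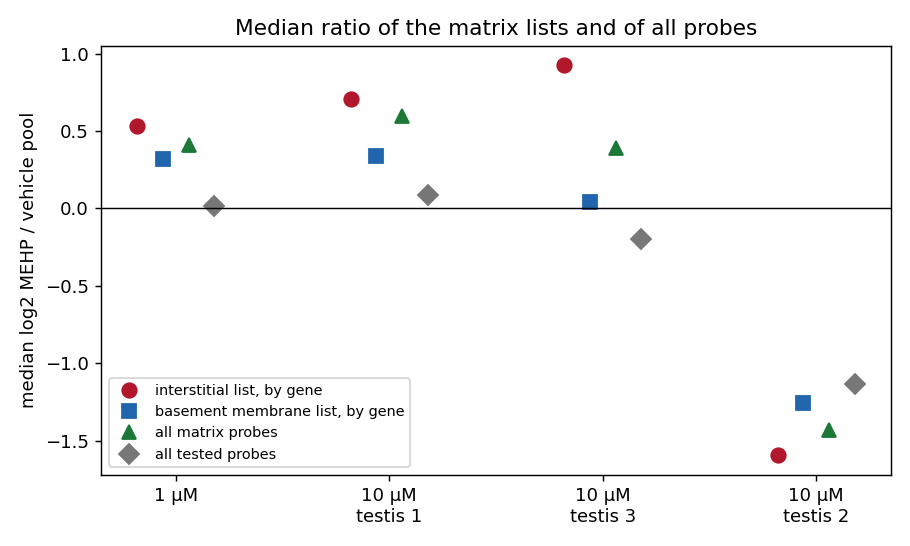
Median log2 ratio of MEHP over the vehicle pool (y axis) in each testis (x axis) for the interstitial list (red circles), the basement membrane list (blue squares), all matrix probes (green triangles) and all tested or assessed probes (grey diamonds). The interstitial median lies above the basement membrane median at 1 µM and in testes 1 and 3, with 0.53 against 0.32, 0.71 against 0.34 and 0.92 against 0.043, and below it in testis 2, with −1.59 against −1.26.

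Sparc, a collagen-binding matricellular protein gene, was at 0.42, −1.89 and 0.044 in testes 1, 2 and 3, and its mean without testis 2 was 0.23 (adjusted p = 0.655, limma). Among the proteases, Mmp2 encodes gelatinase A, which digests type IV collagen and denatured collagens. One Mmp2 probe was at 0.95, −0.52 and 1.46 and passed without testis 2, with a mean of 1.21 (adjusted p = 0.0368, limma). The brightest Mmp2 probe was at 1.09, −1.22 and 0.88, with 0.98 without testis 2 (adjusted p = 0.0655, limma). Both were thus above the pool in testes 1 and 3.

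Mmp14, which encodes the membrane protease that activates the Mmp2 proenzyme, was at −0.29, −2.21 and −0.25 in testes 1, 2 and 3. Another membrane-anchored member, Mmp16, was at −0.73, −1.58 and −0.76, averaging −1.02 ± 0.48 (SD, n = 3; adjusted p = 0.326 by limma). Its hybridizations in testes 1 and 3 were far apart, at −1.55 and 0.094 and at −1.56 and 0.042. Mmp11 was at 0.36, −0.44 and 0.82 with a similar split between dyes, and Mmp23 at 0.11, −1.78 and 0.073. The inhibitor genes lay near the pool outside testis 2. Timp1 was at 0.099, −2.22 and 0.023, and Timp2, whose product inhibits Mmp2 and also takes part in its activation, was at −0.23, −2.48 and 0.13.

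Only 2 of the 16 Adamts genes, Adamts7 and Adamts9, could be tested. Adamts9, whose product cuts the proteoglycans versican and aggrecan, was at 0.12, −2.36 and 0.56 in testes 1, 2 and 3, and Adamts7 at −0.048, −1.75 and 0.65. Of the 14 other collagens only Col9a2, a cartilage collagen gene, was tested, at 1.08, −0.69 and 0.18. The rest, with the 4 Adamts-like genes, did not reach the brightness limit at 10 µM.

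At 1 µM there was 1 testis and no test, and a probe was called when both hybridizations differed from the pool by at least 1.5-fold in the same direction. This held for 12 of the 57 matrix probes, of which 11 were higher and 1 lower, against 7% of 13205 assessed probes across the array, 4.04% higher and 2.95% lower. Both hybridizations were above 0 for 40 of the 57 matrix probes, against 25.6% of all assessed probes. All 3 assessed Col1a1 probes were called, at 1.37, 0.84 and 0.92, and the brightest of them was at 1.40 and 1.34 in its hybridizations.

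Other interstitial genes called at 1 µM were Col3a1, at 0.77 and 0.87 in the 2 hybridizations, and Col5a1, whose probes were at 1.03 and 0.82. The dimmer Col16a1 probe was at 1.69, with hybridizations of 0.83 and 2.55, while the brighter one, at 0.69, was not called. Nid2 was called at 0.88 and Lama2 at 0.82, as was the brightest Mmp2 probe at 0.63. On the first array the MEHP signal of Lama2 and of the dimmer Col5a1 probe was not well above background. On the repeat the pool signal was not well above background for Lama2, Nid2, that Col5a1 probe and the dimmer Col16a1 probe. Col22a1 was also called, but its MEHP signal was not well above background, so no value is given. The 1 gene called lower was Col4a5, which encodes a chain of the type IV network mutated in Alport syndrome, at −1.32 and −0.89 in its hybridizations, and its MEHP signal on the first array was a substitute that was not well above background. Dcn was at −0.10 and Lamb1 at −0.15.

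The calls at 1 µM depend on the background correction. With normexp correction and loess normalization 3 matrix probes were called, all higher, and these were Col1a1 at 1.54, Col3a1 at 0.87 and Bgn at 0.89. On the repeat array normexp gave much smaller ratios for other probes called as deposited. The brightest Mmp2 probe was at 0.041 there, against 0.60 as deposited and 0.51 with loess alone. A dimmer Col1a1 probe was at 0.029, against 0.62 and 0.48, while the brightest one stayed at 1.51. Whether probes across the array shrank alike was not tested. With loess and no background correction the only call was Col1a1, at 1.15. The array-wide shares of calls under these 2 corrections were not computed. The medians at 1 µM were 0.32 over the 12 assessed basement membrane genes, 0.53 over the 12 interstitial genes, 0.41 over the 57 matrix probes and 0.018 over all assessed probes. The basement membrane median minus the interstitial one was −0.22, with −0.19 and −0.21 in the hybridizations, and the median of the 8 assessed Mmp genes was 0.64, with −0.11 and 0.88 in the hybridizations.

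The difference between doses, which share the vehicle pool, was fitted with the single 1 µM testis assumed to vary like the 10 µM testes. None of the 43 matrix probes passed the adjusted threshold (limma), 0 did at an unadjusted p of 0.05, and across the array the shares were 0% and 0.21%. With the slide as a term the counts of matrix probes were also 0. Dcn had a difference of −1.42 (10 µM minus 1 µM; limma, unadjusted p = 0.2) and Mmp14 of −1.56 (unadjusted p = 0.168). On slide 2, which held both doses, 22 of 43 matrix probes were higher in testis 3 than in the 1 µM testis, and the median difference was 0.0083, against −0.26 over all probes. Without the filter on dim probes 8 of 138 matrix probes passed, or 5.8%, against 4.45% of all 41005 probes, and none of the 8 was well above background in either channel on any array.

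Genes that process or bind the matrix were described in the same way. Of 21 collagen processing genes (prolyl and lysyl hydroxylases, chaperones, procollagen proteases and lysyl oxidase-like enzymes), 12 were tested. None passed with 3 testes, and 1 rose without testis 2, where 7.12% of all tested probes did. This was Bmp1, the protease that removes the C-propeptide of procollagens, at 1.99, −0.44 and 2.66 in testes 1, 2 and 3, with 2.32 without testis 2 (adjusted p = 0.00793, limma). Serpinh1, the collagen chaperone Hsp47, was at 1.24, −2.95 and 0.39. Of the 12 processing genes 6 were above the pool and 2 below it in both testes 1 and 3. Their medians were 0.62, −1.46 and 0.051 in testes 1, 2 and 3. Of 26 matrix receptor genes 8 were tested and 1, Itga1, rose without testis 2, at 1.55 (adjusted p = 0.0189, limma), against the same 7.12%. Itga1 encodes the α1 subunit of a collagen-binding integrin, and it was at 1.89, −1.37 and 1.21, and at 2.59 at 1 µM. The receptor list was split, with 4 genes above the pool and 4 below it in both testes 1 and 3. Its medians were 0.081, −1.52 and −0.0055 in testes 1, 2 and 3.

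Markers of the cell types in the explant were read beside these genes. Of 9 Sertoli cell markers 8 were above background in the pool and 7 were tested, and 3 of them, Dhh, Inhbb and Ptgds, fell without testis 2, where 9.53% of all tested probes fell, the list's medians being −0.43, −0.79 and −1.34 in testes 1, 2 and 3. In both testes 1 and 3, 6 of the 7 were below the pool and 1, Sox9, was above it, at 1.10 and 0.41. Sox9 was at −1.29 in testis 2, and its mean without testis 2 was 0.75 (adjusted p = 0.153, limma). Of 8 Leydig cell markers 5 were tested, with medians of −0.33, −1.60 and −1.86. Cyp17a1 passed with 3 testes (−1.96 ± 0.32, SD, n = 3, adjusted p = 0.0493 by limma), where 1.16% of all tested probes fell. Without testis 2, 2 of the 5 fell, Cyp17a1 and Insl3, Insl3 at −1.55 (adjusted p = 0.0171, limma), against the same 9.53%. The list was split: 3 markers were below the pool in both testes 1 and 3. Star was at 1.27, −1.08 and −1.86 in testes 1, 2 and 3, and Scarb1 at 1.46, −1.72 and −0.038. The 4 tested markers of peritubular myoid or smooth muscle cells had medians of 0.36, −0.76 and 0.075, and without testis 2 Mylk was higher, at 1.79, and Tagln lower, at −1.21. The endothelial marker Kdr, the only one of 7 that was tested, was above the pool in testes 1 and 3, at 0.96 and 0.81, and below it in testis 2. The defining endothelial markers Cdh5, Tek, Tie1, Vwf and Esam were not above background. Of 4 mesonephros or kidney markers only Pax2 was tested, at 0.93, 0.54 and 0.93. At 1 µM 3 of the 6 assessed Leydig cell markers were called higher and 2 lower, with a median of 0.67, and 1 of 8 Sertoli cell markers was called lower, with a median of −0.17. The medians there were 0.094 over 4 peritubular or smooth muscle markers, 0.54 over 2 endothelial, 0.63 over 4 macrophage and −0.016 over 3 germ cell markers. At 10 µM 3 macrophage markers were tested, with medians of −0.21, −0.90 and −0.15 in testes 1, 2 and 3. Of these 3, 2 were below the pool in both testes 1 and 3. The 2 tested germ cell markers had medians of −0.018, −1.52 and −0.53, and 1 of them was below the pool in both testes 1 and 3. Whether a change in the share of these cells takes part in the matrix ratios was not tested.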

How the data were processed

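RNA of whole rat fetal testis explants was measured on 8 two-channel Agilent whole rat genome arrays. The authors' scanner software (Feature Extraction, version 9.1 per the labels) gave for each spot a background-subtracted, dye-normalized ratio of red over green, deposited as a log10 ratio with its error, and the intensity of both channels as deposited, with marks for outliers, substituted signals and signals well above background. The methods name another version of this software. The lists of selected genes that the authors deposited with fold changes and p-values were not used.

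Here the log10 ratios were turned to log2 MEHP over vehicle, outlier spots were left out, spots of a probe were averaged, and both hybridizations of a testis were averaged into 1 replicate. A probe was tested at 10 µM if at least 1 channel was well above background on at least 3 of the 6 arrays and it was measured in all 3 testes, and assessed at 1 µM if this held on at least 1 of 2 arrays. Ratios were tested against 0 with limma 3.58.1 (lmFit and eBayes, R 4.3.3) two-sided, at an adjusted p of 0.05 (Benjamini-Hochberg, over every probe tested). The 1 µM testis had no test. The fits were tested on simulated data. No probe of these genes was saturated. The number of arrays limits the precision. The p-values measure the spread between testes of different litters, against 1 pool.

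Each gene of the lists was represented by its brightest probe, and named genes were the tested basement membrane, interstitial, Sparc, Timp and Mmp genes, probes past the threshold, probes called at 1 µM and the 5 largest rises and falls. Beside these, Lamb1, Col4a1 and other probes are named where a count of 5 or fewer needs it, and the Adamts and Col9a2 values and Col4a2 and Serpinh1 were chosen after their values were seen. The members and lists were chosen with earlier results of these data known. Accessions tied 40 of the 138 probes to RefSeq genes, all with the same symbol, and 95 of the 97 names are current symbols. The alternatives tried were other background corrections (normexp with an offset of 50 on the intensity columns, or none, each with loess), centring, filters, outlier spots, single hybridizations, left-out testes, fits of all arrays and other limits. Leaving out testis 2 together with centring, and the slide as a term in the dose comparison, were chosen after seeing the data.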

Additional observations from a re-analysis of the deposited data

How the results depend on the processing

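No paired analysis was possible because each testis was compared with 1 vehicle pool and the doses share fewer than 2 replicate numbers. With 3 testes 0 matrix probes passed, leaving out each testis in turn gave 0 to 6, and leaving out testis 2 with centred arrays gave 13. A trend in eBayes gave 1 and an unadjusted p of 0.01 gave 1, and for these the share over all tested probes was not computed. The error-weighted mean over arrays, whose error comes from within arrays, gave 25 of 41, or 61%, against 57.4% of all 9933 probes fitted. Fitting the 6 arrays with a random block for the testis gave 0 matrix probes and 0 of all 9933 probes, with or without the slide as a term. The dose difference gave 8 calls of 138 without the filter on dim probes, or 5.8%, against 4.45% of all probes. Dim signals set the limit: 43 of the 138 matrix probes could be tested, and in testis 2 the MEHP channel was well above background for at most 5.

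At 1 µM the 12 calls became 3 with normexp, 1 with loess alone, 6 with both channels above background, 24 with the first hybridization alone, 29 with the repeat alone and 1 at a 2-fold limit. The shares of all assessed probes called under these alternatives were not computed, so the counts do not set matrix probes apart from the array. The matrix median of 0.41 became 0.083, 0.14 and, with no filter, 0.11. The basement membrane minus interstitial difference of −0.22 became −0.15 with normexp, −0.32 with loess alone, −0.26 with no filter, −0.53 with both channels, −0.19 with the first hybridization and −0.24 with the mean of all probes of a gene. The causes were not tested.

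Signs of means at 10 µM turned as follows. Centred arrays, which raised the median of all tested probes from −0.42, gave 0.10 for Col5a2, 0.13 for Fn1, 0.15 for Nid2, 0.24 for Lama5, 0.29 for Col6a1, 0.31 for Lama2, 0.39 for Col4a1 and 0.40 for Lamb3. Normexp gave −0.012 for Mmp11, 0.048 for Mmp23, 0.068 for Lama5, 0.070 for Timp1, 0.080 for Eln, 0.15 for Sparc, 0.16 for Nid2, 0.21 for Col5a2, 0.34 for Col6a1, 0.46 for Fn1 and 0.61 for Col4a1, and −0.013 for Nid2 at 1 µM. Loess alone gave −0.0096 for Mmp11, 0.0076 for Col18a1, 0.050 for Mmp23, 0.051 for Timp1, 0.075 for Lama5, 0.15 for Nid2, 0.16 for Sparc, 0.22 for Col5a2, 0.32 for Col6a1, 0.39 for Fn1 and 0.59 for Col4a1. The first hybridization alone gave −0.060 for Col1a1, −0.54 for Mmp11, −0.67 for Bgn, −0.84 for Col1a2, 0.25 for Lama5 and 0.36 for Eln. The repeat alone gave 0.027 for Sparc, 0.12 for Lox, 0.33 for Col4a1, 0.38 for Lama2 and 1.10 for Lamb3.

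Leaving out each testis in turn moved the mean across 0 for 27 of the 43 tested matrix probes, and for 38.3% of all tested probes. For those of the named genes the ranges were −0.037 to 0.59 for Mmp11, −0.17 to 0.98 for Mmp2, −0.85 to 0.090 for Mmp23, −1.10 to 0.061 for Timp1, −0.71 to 1.08 for Col4a1, −0.39 to 0.051 for Lama2, −0.65 to 0.11 for Lama5, −0.25 to 0.15 for Lamb3 and −0.80 to 0.50 for Nid2, and −0.45 to 1.09 for Bgn, −0.31 to 1.67 for Col16a1, −0.37 to 0.72 for Col1a2, −0.15 to 1.32 for Col3a1, −0.23 to 0.86 for Col5a1, −0.85 to 0.50 for Col5a2, −0.71 to 0.79 for Col6a1, −1.04 to 0.93 for Fn1 and −0.92 to 0.23 for Sparc. With testis 2 left out and the arrays centred, the signs turned at 0.18 for Mmp23, 0.15 for Timp1, 0.036 for Timp2, 1.16 for Col4a1, 0.14 for Lama2, 0.20 for Lama5, 0.24 for Lamb3, 0.59 for Nid2, 0.59 for Col5a2, 0.87 for Col6a1, 1.02 for Fn1 and 0.32 for Sparc. The brightest probes of Dcn, Lamb1, Lamb2, Mmp14 and Mmp16 kept their sign under every alternative tried.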
